A study of Mus musculus with 6 samples.

Results

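The 37 genes described here encode the enzymes and binding proteins with which a cell neutralises peroxides, superoxide, electrophiles and free metal ions. They were chosen by symbol, as regulators and targets of the transcription factor NRF2, glutathione and thioredoxin enzymes, peroxidases, glutathione transferases, dismutases, enzymes of the pentose phosphate pathway and metallothioneins. All 37 symbols were found among the 17023 genes of the deposited table. RNA had been sequenced from primary smooth muscle cells of the airways of wild-type (WT) mice, taken from lung. In the co-culture group (3 libraries) these cells had spent 5 days in transwell plates with mouse airway epithelial cells, and in the control group (3 libraries) the same time without them. The sources used here do not give the age or strain of the mice, or say whether the libraries of a group came from separate animals or cultures, so p-values measure the spread between these libraries, which may be technical. The study asked what lies behind a proliferation phenotype of the muscle cells. Co-culture columns are numbered 1 to 3 and control columns 4 to 6 in the table, and libraries are named here by those numbers.

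Peroxides, quinones and other electrophiles modify cysteines of KEAP1, which otherwise marks NRF2 (gene Nfe2l2) for degradation. NRF2 then pairs with small MAF proteins at antioxidant response elements and raises the genes of glutathione synthesis, thioredoxin reduction and NADPH supply. NRF2 is controlled mainly at the level of the protein, so its mRNA need not follow its activity. In the airway wall these systems buffer oxidants that reach the muscle from inhaled air and from inflamed epithelium.

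Total estimated counts ranged from 17496056 to 18496623 per library. Control library 4 differed from the other controls in a way that bears on these genes: genes with an implied length under 1 kb took 18.3% of its counts, against 9.26% to 9.78% in controls 5 and 6 and 10.2% to 11.2% in co-culture. Of the 37 genes, 17 were that short (45.9%), against 10.4% of all genes tested. All 17 were higher in control library 4 than in controls 5 and 6, with a median log2 ratio of 0.99, as were 91.5% of the 1347 tested genes of that length, with a median of 0.91. Among genes over 4 kb that median was -0.15. Among the 37 genes the largest ratio was that of Prdx1, at 3.86-fold. No source explains the difference, and its part in the results was not tested. Fold changes below are therefore given with and without that library, and levels in CPM (counts relative to library size, with TMM factors).

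**Figure D1:**
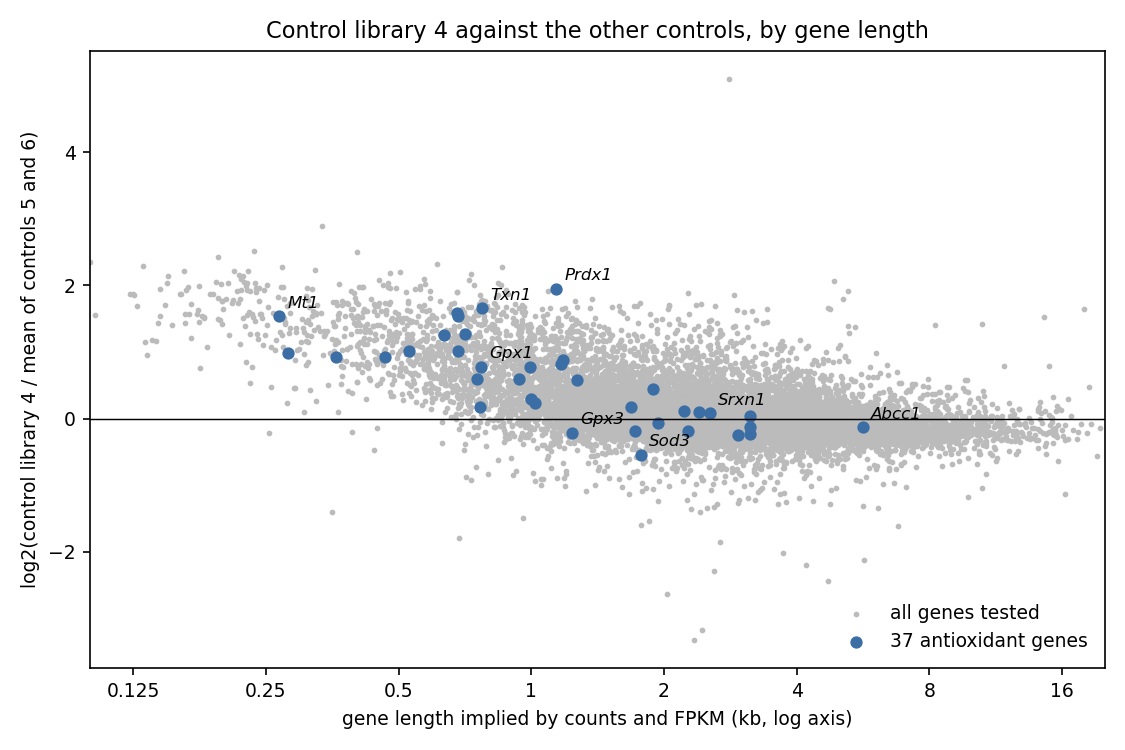
Each point is 1 of 12935 tested genes with an implied length. The x axis is that length in kb (log axis; 23 genes outside 0.1 to 20 kb are not shown) and the y axis the log2 ratio of CPM in control library 4 to the mean of controls 5 and 6. The 17 antioxidant genes under 1 kb all lie above 0, whereas Gpx3, Sod3 and Abcc1 lie below it.

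Markers of the labelled cell type were incomplete. Acta2 (smooth muscle actin) was at 47.1 to 78.9 CPM in co-culture and 125.4 to 152 CPM in controls, but the smooth muscle myosin Myh11 was at most 1.54 CPM and Cnn1, Actg2 and Des at most 1.05 CPM in any library. Smtn was at 109 to 120 CPM in co-culture and 111 to 145 CPM in controls. It did not pass with all libraries (log2 fold change -0.17 ± 0.11 SE, edgeR adjusted p = 0.313). Without control library 4 it fell by 0.27 ± 0.06 (edgeR adjusted p = 0.00322). The 9 smooth muscle markers summed to 213 to 245 CPM in co-culture and 334 CPM in each control. Acta2, Tagln and Cnn1 fell, Myocd rose 6.71-fold from a mean of 0.114 CPM (edgeR adjusted p = 0.002), and Lmod1, at a mean of 35.4 CPM against 28.1 CPM, lay above the controls in every co-culture library without passing. The 6 fibroblast markers summed to 1456 to 1501 CPM and 1267 to 1417 CPM, with Pdgfra the largest share. Col14a1 fell, to 0.132 times the control level (edgeR adjusted p = 2.14e-04), and Dpt rose 1.98-fold (edgeR adjusted p = 0.00912). Pdgfra, Dcn and Lum did not pass with all libraries. Without control library 4 Dcn rose by 0.22 ± 0.06 and Lum by 0.55 ± 0.07 (edgeR adjusted p = 0.0123 and 8.31e-05). There Dpt also rose, Col14a1 fell and Pdgfra did not pass. The 12 epithelial markers summed to 11.1 to 12.6 CPM in co-culture and 19.7 to 27.2 CPM in controls. Krt18 fell, from 15.8 to 24.1 CPM in controls to 4.17 to 4.91 CPM in co-culture, whereas Trp63 rose 3.82-fold (edgeR adjusted p = 0.0012) and Muc1 1.64-fold (edgeR adjusted p = 0.0347). The other 9 epithelial markers, including Epcam and Krt5, were under 1 CPM in all 6 libraries. The 7 measured leukocyte markers summed to 62.2 to 68.1 CPM and 79.1 to 132.7 CPM, with the highest value in control library 4, and Ptprc was under 1 CPM throughout. The largest was Lyz2, at 36.8 to 43.0 CPM in co-culture and 49.7 to 103 CPM in controls. Of the 6 tested only Csf1r was called, at 0.383 times the control level (edgeR adjusted p = 0.00562). Without control library 4 Csf1r and Lyz2 were called lower. Cd14 and Itgam had log2 fold changes of -0.002 and -0.006 with all libraries. The 5 endothelial markers summed to at most 3.59 CPM. The part of smooth muscle, fibroblast, epithelial and leukocyte differences in the results below was not tested. Fewer cells of a type cannot be told apart from less RNA per cell.

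Of the 37 genes, all of which passed the filter on low counts, 8 fell and 2 rose in co-culture (edgeR's quasi-likelihood test, adjusted p under 0.05 by the method of Benjamini and Hochberg). Over all 12936 genes tested, 10.3% fell and 10.3% rose, together 20.6%. The genes that fell were the peroxidases Gpx3 and Gpx1, the glutathione synthesis genes Gclc, Gclm and Gss, the thioredoxin system genes Srxn1 and Txnrd1, and Pgd of the pentose phosphate pathway. Those that rose were Sod3 and Abcc1. The median log2 fold change (co-culture over control) of the 37 genes was -0.26, and that of all genes tested was -0.04. Without control library 4 the medians were 0.02 and 0.01, and 10 genes rose and 10 fell, where 18.7% and 19.9% of all genes tested did, together 38.6%. The 10 genes called with all libraries were called in the same direction without it, and they kept their sign in all 16 alternative analyses. Gpx3, Srxn1 and Gclc were called with any 1 library left out, whereas each of the other 7 lost its call in at least 3 of the 6 such analyses. With co-culture library 1, 2 or 3 or control library 6 omitted 0 genes rose, and with control library 5 omitted 1 did. With co-culture library 1, 2 or 3 omitted 4, 4 and 3 genes fell, and with control library 5 or 6 omitted 5 and 4 did. In CPM the groups did not overlap for 14 of the 37 genes, with co-culture above in 4 and below in 10. Over all genes tested the share was 42.9%, with 20.4% above and 22.5% below.

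**Figure D2:**
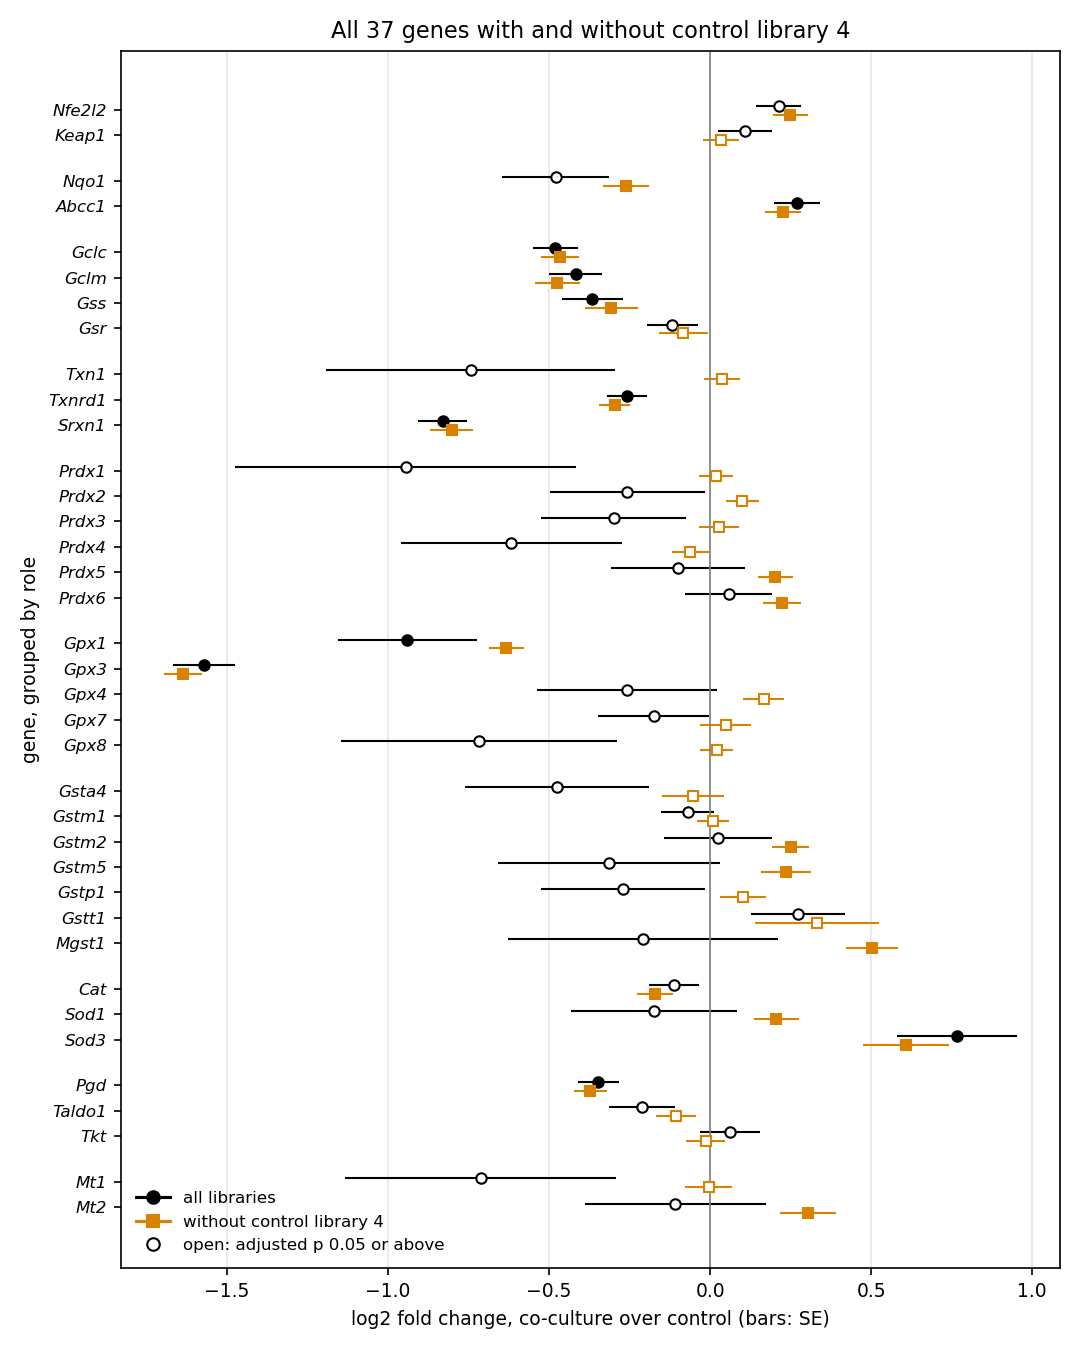
Points are log2 fold changes of co-culture over control with SE bars, for all 37 genes ordered by role (y axis), with all 6 libraries (black circles) and without control library 4 (orange squares). Filled symbols mark an adjusted p under 0.05: 10 genes with all libraries and 20 without control library 4.

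The mRNA of the regulator itself did not fall. Nfe2l2 was at 290.1, 312 and 294 CPM in co-culture libraries 1 to 3 and at 270.5, 258 and 245 CPM in control libraries 4 to 6. Every co-culture library lay above every control, but the change of 0.21 ± 0.07 (log2 fold change ± SE) did not pass (edgeR adjusted p = 0.0781). It was 0.25 without control library 4, where it passed (edgeR adjusted p = 0.00371, and 0.00371 to 0.35 over its 16 alternatives). With that library kept it passed by limma with quality weights (limma adjusted p = 0.00557). It also passed with library totals without factors and with a gene-length trend as offset (edgeR adjusted p = 0.0491 and 0.0254). Keap1, which encodes the adaptor that targets NRF2 for degradation, was at 71.2, 76.3 and 76.6 CPM against 61.97, 73.1 and 72.8 CPM. Its groups overlapped and it did not pass (0.11 ± 0.08, edgeR adjusted p = 0.395, and 0.03 ± 0.06 without control library 4).

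The genes that make glutathione were lower in co-culture. Gclc, the catalytic subunit of glutamate-cysteine ligase, which carries out the rate-limiting step (gene ID 14629, chromosome 9, 77754535 to 77794489), was at 81.7, 84.0 and 91.5 CPM in co-culture and 122, 123 and 114 CPM in controls. The groups were well apart and control library 4 lay between the other controls. Gclc fell by 0.48 ± 0.07 on the log2 scale (edgeR adjusted p = 0.00509), a level 0.717 times that of controls, and the call was lost in 1 of 16 alternatives, with log2(TPM + 1) (adjusted p from 7.96e-05 to 0.613). Gclm, the modifier subunit of the same enzyme (gene ID 14630, chromosome 3, 122245487 to 122267215), was at 25.3, 27.7 and 26.2 CPM in co-culture and 32.4, 35.95 and 37.3 CPM in controls. Again no co-culture library reached a control in CPM. As FPKM, without TMM factors, co-culture library 2 and control library 4 were both at 16.7. Gclm fell by 0.42 ± 0.08 (edgeR adjusted p = 0.0159), and it was no longer called on omitting co-culture library 1 or 3, or either of controls 5 and 6 (edgeR adjusted p = 0.0717, 0.073, 0.0547 and 0.077; 2.42e-04 to 0.741 over 16 alternatives). Gss, glutathione synthetase, which adds glycine in the second step (gene ID 14854, chromosome 2, 155563181 to 155592810), was at 26.5, 23.1 and 23.5 CPM in co-culture and 33.9, 31.4 and 29.0 CPM in controls. Its groups also lay apart, though by less. Gss fell by 0.37 ± 0.09 (edgeR adjusted p = 0.0381). On omitting any co-culture library this missed the threshold (edgeR adjusted p = 0.0589, 0.134 and 0.138), as it did on omitting control library 5 or 6 (0.0908 and 0.0577; 0.00822 to 0.775 over 16 alternatives). Gsr, glutathione reductase, which returns oxidised glutathione to its reduced form, was at 24.8, 25.3 and 23.5 CPM against 27.9, 26.9 and 25.1 CPM. The groups overlapped and it did not pass (-0.12 ± 0.08, edgeR adjusted p = 0.328). With control library 4 omitted Gclc, Gclm and Gss fell by 0.47 ± 0.06, 0.47 ± 0.07 and 0.31 ± 0.08, and Gsr was at -0.08 ± 0.08.

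In the thioredoxin system the enzymes fell while thioredoxin itself could not be judged with all libraries. Srxn1, sulfiredoxin, which repairs over-oxidised peroxiredoxins and is a well-known NRF2 target (gene ID 76650, chromosome 2, 152105524 to 152111376), was at 47.5, 52.2 and 47.7 CPM in co-culture and 90.7, 90.4 and 81.0 CPM in controls. Each control was far above each co-culture library. Srxn1 fell by 0.83 ± 0.08 (edgeR adjusted p = 8.68e-04), to 0.562 times the control level, and its call was lost in 1 of 16 alternatives, with log2(TPM + 1) (adjusted p from 2.68e-10 to 0.143). Txnrd1, the cytosolic thioredoxin reductase (gene ID 50493, chromosome 10, 82833951 to 82897724), was at 161, 164 and 166 CPM in co-culture and 185, 202 and 199.7 CPM in controls. In CPM its co-culture libraries were close together and below all controls. As FPKM, without TMM factors, the groups overlapped. Co-culture libraries were at 53.2, 54.25 and 54.8 FPKM, control library 4 was lower, at 52.1, and controls 5 and 6 were at 65.0 and 63.6. With library totals without factors Txnrd1 was not called (edgeR adjusted p = 0.361). The gene Eid3 lies within the span of Txnrd1, and reads from any shared exon cannot be told apart without strand. Whether exons of the pair overlap was not checked. Txnrd1 fell by 0.26 ± 0.06 (edgeR adjusted p = 0.0313). Omitting any co-culture library ended the call (edgeR adjusted p = 0.128, 0.111 and 0.111), and so did omitting control library 5 or 6 (0.0995 and 0.149; 4.52e-04 to 0.927 over 16 alternatives). With control library 4 omitted Srxn1 fell by 0.80 ± 0.07 and Txnrd1 by 0.30 ± 0.05. Txn1, thioredoxin, was at 227, 232 and 212 CPM in co-culture, 688 CPM in control library 4, and 216 and 220.3 CPM in controls 5 and 6. Control library 4 alone stood above the rest, and the change was -0.74 ± 0.45 with it (edgeR adjusted p = 0.286) and 0.04 without it (edgeR adjusted p = 0.636; 0.162 to 0.848 over 16 alternatives).

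RefSeq promoter windows (GRCm38.p6, from 250 bases before to 50 after a transcription start, 300 bases each) were held for 31 of the 37 genes, 39 windows in all. They were searched on both strands for the core of the antioxidant response element, TGACNNNGC. It occurred in 10 of the 39 windows (25.6%) and in 12.4% of all 32851 windows of that length. Windows with the core belonged to the called genes Srxn1, Gclm, Pgd (1 of its 2 windows) and Txnrd1 (1 of its 3) and to Nfe2l2, Prdx1, Gstm5, Mgst1, Sod1 and Mt2, which were not called. A match is a run of letters and not a known binding site. The windows of Srxn1 (chr2:152105274-152105573, + strand), Gclm (chr3:122245307-122245606, + strand) and Gpx3 (chr11:54902604-54902903, + strand) are shown because these are the genes with the smallest adjusted p among those called that have a single window here. They are written 5′ to 3′ with matches to the core, which lie on the opposite strand in Srxn1 and Gclm, in capitals; the Gpx3 window has no match.
Srxn1: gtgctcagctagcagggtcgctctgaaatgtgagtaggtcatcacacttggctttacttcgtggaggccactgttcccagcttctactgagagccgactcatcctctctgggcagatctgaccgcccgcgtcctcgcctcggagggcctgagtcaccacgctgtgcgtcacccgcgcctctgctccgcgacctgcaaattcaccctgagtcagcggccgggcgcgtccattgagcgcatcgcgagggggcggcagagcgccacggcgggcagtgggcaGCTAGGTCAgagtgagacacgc
Gclm: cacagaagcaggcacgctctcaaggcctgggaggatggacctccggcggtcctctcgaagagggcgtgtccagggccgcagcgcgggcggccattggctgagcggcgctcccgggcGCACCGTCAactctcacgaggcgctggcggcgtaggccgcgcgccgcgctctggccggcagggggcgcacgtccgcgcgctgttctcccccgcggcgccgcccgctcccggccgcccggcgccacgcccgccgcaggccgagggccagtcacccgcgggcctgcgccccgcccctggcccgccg
Gpx3: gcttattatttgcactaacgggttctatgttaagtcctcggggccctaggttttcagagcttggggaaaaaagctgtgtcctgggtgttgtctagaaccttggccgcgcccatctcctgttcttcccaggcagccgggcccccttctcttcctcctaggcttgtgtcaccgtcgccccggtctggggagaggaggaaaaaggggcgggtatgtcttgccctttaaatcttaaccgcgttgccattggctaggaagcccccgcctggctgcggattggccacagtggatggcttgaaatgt

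The largest change was in a glutathione peroxidase. Gpx3, the secreted enzyme of this family (gene ID 14778, chromosome 11, 54902854 to 54910387), was at 374, 334 and 359 CPM in co-culture and 959, 1113 and 1099 CPM in controls. All 3 controls were more than 2-fold above every co-culture library. Gpx3 fell by 1.57 ± 0.10 (edgeR adjusted p = 2.07e-04), to 0.336 times the control level (by 1.64 ± 0.06 without control library 4), and was called in all 16 alternatives (adjusted p from 6.58e-34 to 0.00405). Gpx1, the main cytosolic peroxidase (gene ID 14775, chromosome 9, 108339080 to 108340342), was at 129.5, 121 and 117 CPM in co-culture and 326, 192 and 188 CPM in controls. Control library 4 was much the highest, but the other controls also lay above all co-culture libraries. Gpx1 fell by 0.94 ± 0.22 (edgeR adjusted p = 0.0253), and by 0.63 without control library 4 (edgeR adjusted p = 2.96e-06). Omitting any of the co-culture libraries ended the call (edgeR adjusted p = 0.0809, 0.0924 and 0.1001; 2.96e-06 to 0.1001 over 16 alternatives).

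The other peroxidases of this family were not called with or without control library 4. Gpx4, which reduces lipid hydroperoxides in membranes, was at 213, 203 and 186 CPM in co-culture against 363 CPM in control library 4 and 184 and 174 CPM in controls 5 and 6. Gpx8, an enzyme of the endoplasmic reticulum, was at 91.3, 86.7 and 89.2 CPM against 264 CPM in control library 4 and 87.9 and 87.7 CPM in the other controls. Gpx7, its close relative in the same compartment, was at 37.2, 37.2 and 32.3 CPM against 51.8, 34.4 and 34.5 CPM. All 3 had overlapping groups and did not pass (edgeR adjusted p = 0.541, 0.282 and 0.505). Their changes were -0.26 ± 0.28, -0.72 ± 0.43 and -0.18 ± 0.17 with all libraries and 0.17 ± 0.06, 0.02 ± 0.05 and 0.05 ± 0.08 without control library 4.

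**Figure D3:**
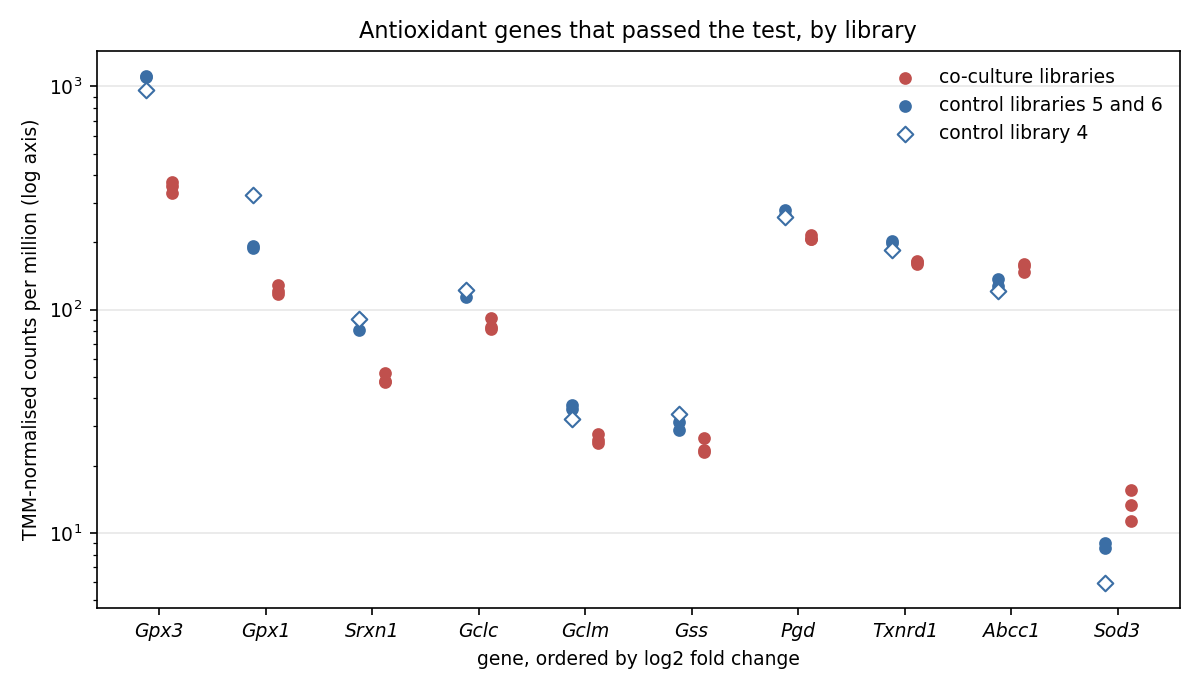
CPM (y axis, log) of the 10 genes that passed the test, ordered by log2 fold change (x axis), with 1 point per library: co-culture in red, controls 5 and 6 in blue, control library 4 as an open diamond. In each gene the groups do not overlap; control library 4 stands above the other controls in Gpx1 and below them in Sod3.

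None of the 6 peroxiredoxins, which reduce hydrogen peroxide with electrons from thioredoxin or glutathione, passed the test (0 also at an unadjusted p under 0.05 and by DESeq2), and all 6 were highest in control library 4. Prdx1, the most abundant of them, was at 686, 695 and 710.1 CPM in co-culture, 2654 CPM in control library 4, and 696 and 680 CPM in controls 5 and 6. Apart from that 1 library the groups overlapped closely, and the change was -0.95 ± 0.53 with it and 0.02 ± 0.05 without it. Prdx2 of the cytosol, Prdx3 of mitochondria and Prdx4 of the endoplasmic reticulum had changes of -0.26, -0.30 and -0.62 with all libraries and 0.10, 0.03 and -0.06 without control library 4, and none passed either way. Prdx5, found in mitochondria and peroxisomes, was at 152, 147 and 139.9 CPM in co-culture against 216, 128 and 126 CPM. Prdx6, which uses glutathione and also acts on phospholipids, was at 259.9, 242 and 232 CPM against 287, 213 and 206 CPM. In both, control library 4 exceeded all co-culture libraries while the other controls lay below them. Without it Prdx5 rose by 0.20 ± 0.05 (edgeR adjusted p = 0.0103, and 0.0103 to 0.922 over 16 alternatives) and Prdx6 by 0.22 ± 0.06 (edgeR adjusted p = 0.0102, and 0.0102 to 0.996). With all libraries Prdx5 was at -0.10 ± 0.21 and Prdx6 at 0.06 ± 0.14. The span of the gene Trmt112 overlaps that of Prdx5, and whether their exons overlap was not checked.

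Glutathione transferases, which couple glutathione to electrophiles, gave 0 calls among 7 genes (0 at an unadjusted p under 0.05, 0 by DESeq2 and 1, Gstm2, by limma with quality weights), and all 7 were highest among controls in control library 4. Mgst1, the microsomal enzyme, was at 69.7, 72.5 and 60.5 CPM in co-culture, 139 CPM in control library 4, and 49.7 and 45.8 CPM in controls 5 and 6. The co-culture libraries thus lay between control library 4 and the other controls. The change was -0.21 ± 0.42 with all libraries and 0.50 ± 0.08 without control library 4, where it passed (edgeR adjusted p = 4.46e-04, and 4.46e-04 to 0.922 over 16 alternatives). Of the mu class, Gstm2 was at 136, 125.2 and 133 CPM against 167, 115 and 107 CPM, and Gstm5 at 39.6, 43.1 and 40.1 CPM against 83.4, 37.3 and 32.2 CPM. Their changes were 0.02 ± 0.17 and -0.32 ± 0.34 with all libraries. Without control library 4 they rose by 0.25 and 0.24 (edgeR adjusted p = 0.00447 and 0.0312; 0.00447 to 0.997 and 0.0312 to 0.992 over 16 alternatives each). Gstm1 changed by -0.07 ± 0.08, Gsta4 by -0.48 ± 0.29 and Gstp1 by -0.27 ± 0.25, and without control library 4 by 0.01, -0.05 and 0.10, passing in neither analysis. Gstt1 was low, at 2.67 to 3.18 CPM in co-culture and 2.23 to 2.66 CPM in controls. It did not pass (0.27 ± 0.15, edgeR adjusted p = 0.234, and 0.33 ± 0.19 without control library 4), although its groups did not overlap. Mu-class genes lie next to each other on chromosome 3 and are close in sequence, and the table lists the Gstp1 transcript as 2 copies with 50% of the reads each, so counts of single transferases may be shared and are uncertain.

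Of the dismutases and catalase in the set chosen by symbol, only the extracellular enzyme was called with all libraries. The mitochondrial dismutase Sod2, among the further pathway genes below, also rose, by 1.14 ± 0.17 (edgeR adjusted p = 0.0058). Sod3, the secreted superoxide dismutase that binds to matrix around smooth muscle (gene ID 20657, chromosome 5, 52363804 to 52369738), was at 13.3, 11.3 and 15.5 CPM in co-culture and 5.99, 9.03 and 8.53 CPM in controls. No control reached the lowest co-culture library, and control library 4 was the lowest. Sod3 rose by 0.77 ± 0.19 (edgeR adjusted p = 0.0314), a level 1.70-fold that of controls. Without control library 4 it rose by 0.61, and omitting co-culture library 1, 2 or 3 or control library 6 took it past the threshold (edgeR adjusted p = 0.0961, 0.0509, 0.113 and 0.0607; 0.00359 to 0.132 over 16 alternatives). Sod1, the cytosolic copper-zinc enzyme, was at 134, 148 and 124 CPM in co-culture against 224, 119 and 116 CPM. It changed by -0.18 ± 0.26 with all libraries and rose by 0.20 ± 0.07 without control library 4 (edgeR adjusted p = 0.0355; range 0.0355 to 0.996 over 16 alternatives). Cat, catalase of the peroxisome, was at 84.0, 85.8 and 84.5 CPM against 83.8, 100.2 and 90.8 CPM. Here control library 4 was the lowest control, and Cat changed by -0.11 ± 0.08 with all libraries and fell by 0.17 ± 0.06 without it (edgeR adjusted p = 0.0292, and 0.0292 to 0.995 over 16 alternatives).

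Nqo1, the quinone reductase often used as a readout of NRF2, was at 24.99, 24.4 and 25.7 CPM in co-culture and 44.8, 30.9 and 29.1 CPM in controls. All controls were higher and control library 4 the highest, and the change of -0.48 ± 0.17 did not pass (edgeR adjusted p = 0.0892). Without control library 4 it fell by 0.26 ± 0.07 (edgeR adjusted p = 0.0124, and 0.0124 to 0.598 over 16 alternatives). Abcc1, a pump that exports glutathione conjugates (gene ID 17250, chromosome 16, 14361453 to 14474878), was at 147, 161 and 157 CPM in co-culture and 121, 137 and 128 CPM in controls. Its groups did not overlap but the gap was small. Abcc1 rose by 0.27 ± 0.07 (edgeR adjusted p = 0.0421), and by 0.23 ± 0.06 without control library 4. It was not called on omitting any co-culture library (edgeR adjusted p = 0.083, 0.148 and 0.145) or control library 5 or 6 (0.0553 and 0.112; 0.00757 to 0.391 over 16 alternatives).

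The pentose phosphate pathway supplies the NADPH that glutathione and thioredoxin reductases use. Pgd, 6-phosphogluconate dehydrogenase, an NADPH-producing step (gene ID 110208, chromosome 4, 149149991 to 149166705), was at 217, 207 and 207 CPM in co-culture and 259, 265 and 279 CPM in controls. In CPM the groups were apart by more than the spread within either. As FPKM, without TMM factors, Pgd was at 110.7 to 116 in co-culture and at 118, 138 and 144 in controls 4 to 6. With library totals without factors it was not called. Pgd fell by 0.35 ± 0.06 (edgeR adjusted p = 0.0118), and omitting co-culture library 2 or 3 or control library 6 ended the call (edgeR adjusted p = 0.0634, 0.0691 and 0.0691; 1.63e-04 to 0.795 over 16 alternatives). Taldo1 and Tkt, the transaldolase and transketolase of the later sugar exchanges, did not pass, at -0.21 ± 0.10 and 0.06 ± 0.09 (edgeR adjusted p = 0.194 and 0.672). Taldo1 was at 94.2, 87.4 and 82.7 CPM in co-culture and 116.5, 94.7 and 94.8 CPM in controls. Tkt was at 254, 278.5 and 259 CPM against 226, 278.4 and 254 CPM. In CPM Taldo1 groups just missed each other and those of Tkt overlapped. As FPKM Taldo1 groups overlapped, with co-culture library 1 at 97.9 and controls 5 and 6 at 95.7 and 94.9. With control library 4 omitted Pgd fell by 0.37 ± 0.05, and Taldo1 and Tkt were at -0.11 ± 0.06 and -0.01 ± 0.06.

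Mt1 and Mt2, small cysteine-rich proteins that bind zinc and copper, had the highest levels per gene length of the 37 genes. Mt1 was at 504.2, 577 and 485 CPM in co-culture, 1519 CPM in control library 4, and 538 and 509 CPM in controls 5 and 6. The groups overlapped apart from that library. Mt1 was at -0.71 ± 0.42 (edgeR adjusted p = 0.277) and at 0.00 ± 0.07 without it. Mt2 was at 414, 481 and 381 CPM in co-culture against 685, 363 and 327 CPM. Its change was -0.11 ± 0.28 with all libraries, and it rose by 0.30 ± 0.09 without control library 4 (edgeR adjusted p = 0.016; range 0.016 to 0.962 over 16 alternatives). The promoter windows of this neighbouring pair, Mt1 (chr8:94178839-94179138, + strand) and Mt2 (chr8:94172368-94172667, + strand), are shown because metal-responsive sites are their textbook feature. Matches to the metal response element cores TGCGCNC and TGCACNC on either strand are in capitals. There were 3 in Mt1 and 4 in Mt2. Of all 32851 windows 25.7% held at least 1 and 0.517% held 4 or more.
Mt1: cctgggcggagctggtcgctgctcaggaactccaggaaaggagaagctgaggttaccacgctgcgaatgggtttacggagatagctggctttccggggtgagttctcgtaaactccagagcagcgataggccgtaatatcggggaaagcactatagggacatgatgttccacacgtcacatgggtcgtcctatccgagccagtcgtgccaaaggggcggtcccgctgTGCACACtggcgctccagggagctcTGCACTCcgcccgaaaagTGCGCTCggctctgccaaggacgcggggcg
Mt2: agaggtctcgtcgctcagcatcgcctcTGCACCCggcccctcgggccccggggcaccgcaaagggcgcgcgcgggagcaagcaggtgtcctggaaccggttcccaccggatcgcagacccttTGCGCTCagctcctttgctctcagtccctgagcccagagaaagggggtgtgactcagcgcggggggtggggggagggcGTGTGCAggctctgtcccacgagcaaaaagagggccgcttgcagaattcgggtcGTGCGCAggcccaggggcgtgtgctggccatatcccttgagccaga

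Levels of different genes were compared as FPKM, computed from the counts and implied gene lengths without TMM factors. Over libraries other than control library 4, Mt1 ranged from 1878 to 2235 FPKM, Mt2 from 1166 to 1778 FPKM and Prdx1 from 596 to 646 FPKM. Gpx3 was at 883 and 902 FPKM in controls 5 and 6, above Prdx1, and at 682 FPKM in control library 4, but at 278 to 312 FPKM in co-culture, near Txn1 at 285 to 311 FPKM and Gstp1 at 268 to 306 FPKM. Glutathione synthesis genes were much lower, with Gclc at 27.1 to 30.3 FPKM in co-culture and 34.5 to 39.6 FPKM in controls, and Gclm at 15.2 to 16.7 FPKM and 16.7 to 21.7 FPKM. Srxn1 was at 19.5 to 21.4 FPKM in co-culture and 31.7 to 35.99 FPKM in controls. Sod3 and Gstt1 were the least abundant, at 6.63 to 9.10 FPKM and 3.62 to 4.31 FPKM in co-culture.

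**Figure D4:**
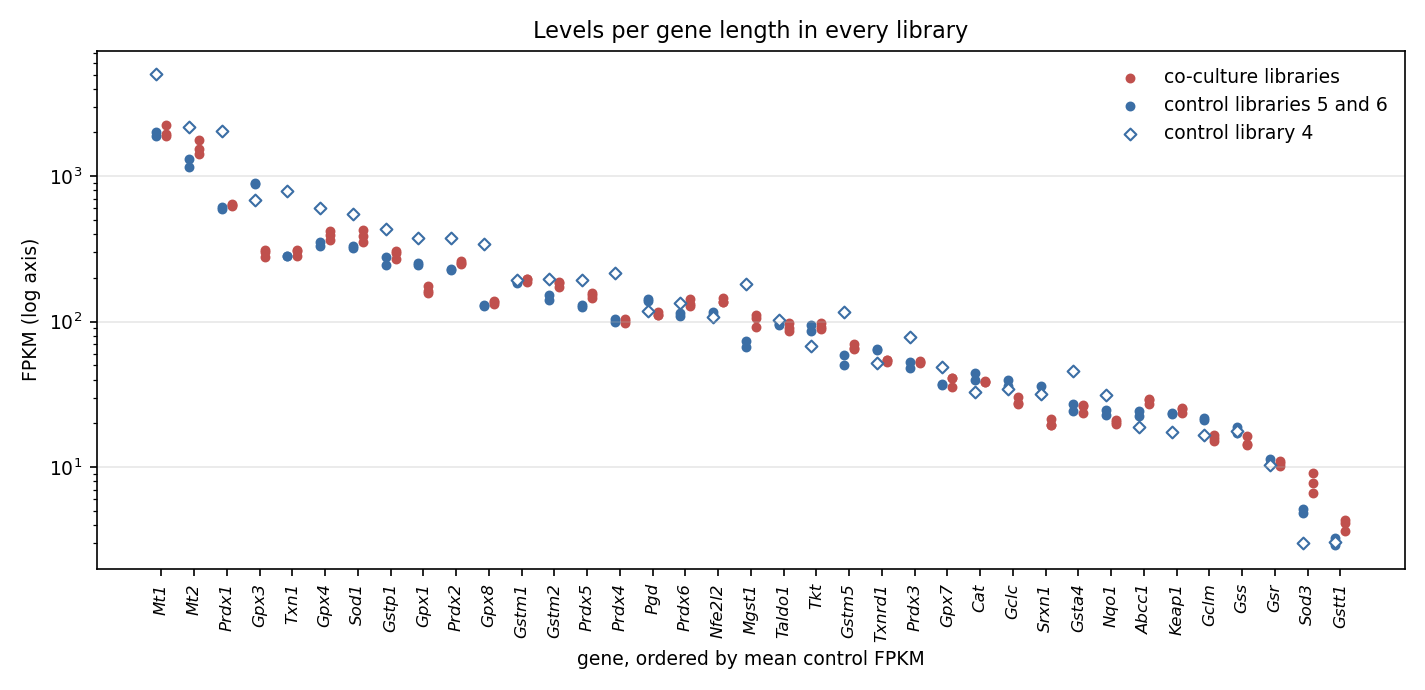
FPKM (y axis, log) of all 37 genes in each of the 6 libraries, ordered by the mean of the controls (x axis), with co-culture in red, controls 5 and 6 in blue and control library 4 as an open diamond. Mt1 and Mt2 are highest and Gstt1 is lowest, and the diamonds lie above the other points for Prdx1, Txn1 and Gpx8.

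Transcript proportions gave no call. The transcript table held 72 transcripts of these genes, of which 59 passed the filter, and 14 genes had at least 2 that did. For 1 of the 14, Gstp1, no change could show, because its 2 listed copies hold 50% of the reads each in every library. Of these 14 genes 0 changed in transcript use by edgeR's diffSpliceDGE (Simes p, Benjamini-Hochberg adjusted p under 0.05), where 0.443% of 7671 genes did, and 1 had an unadjusted p under 0.05. The gene-level F test likewise gave 0 calls and 1 unadjusted p under 0.05. In both that gene was Gss (edgeR Simes adjusted p = 0.332), in which a minor predicted transcript held 2.17% ± 0.247 (SD, n = 3) of the estimated reads in controls and is listed at 0 in co-culture. Txnrd1 was carried mainly by a single transcript, with 90.6% ± 0.533 of reads in co-culture and 88.3% ± 2.71 in controls.

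Among 95 further genes of the same pathways, chosen by role with earlier results of these data known, 92 were in the table and 87 were tested; 11 rose and 9 fell (23.0% called, against 20.6% of all genes tested), with a median log2 fold change of -0.06. Sod2, the mitochondrial manganese superoxide dismutase, was at 174, 183 and 179 CPM in co-culture and 106, 69.1 and 69.1 CPM in controls and rose by 1.14 ± 0.17 (edgeR adjusted p = 0.0058). Nox4, an NADPH oxidase that produces hydrogen peroxide, was at 52.1, 49.3 and 50.4 CPM in co-culture and 136, 112 and 117 CPM in controls and fell by 1.27 ± 0.09 (edgeR adjusted p = 2.89e-04). Both moved by more than 2-fold with groups far apart. Of genes known as NRF2 targets or partners, Hmox1 (haem oxygenase) fell by 0.74 ± 0.07 (edgeR adjusted p = 7.60e-04), Sqstm1 (p62) by 0.47 ± 0.09 and the small MAF protein Mafk by 0.51 ± 0.11. Aox1 (aldehyde oxidase) rose by 0.74 ± 0.07, while the other 20 genes in that role, among them Me1 at 0.00 ± 0.07 and Ephx1 at 0.21 ± 0.06, did not pass with all libraries. Of the genes in that role 5 rose and 6 fell without control library 4, with Ephx1 among those that rose (0.21 ± 0.05, edgeR adjusted p = 0.00815).

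The cystine transporter Slc7a11, which feeds glutathione synthesis, was at 0.06 ± 0.12 and did not pass (edgeR adjusted p = 0.737), nor did G6pdx, the first enzyme of the pentose phosphate pathway, at -0.05 ± 0.06. Oplah, 5-oxoprolinase of the glutathione cycle, rose by 0.91 ± 0.12 and Ggt7 by 0.52 ± 0.10, and Hagh (glyoxalase II) fell by 0.79 ± 0.17. Selenop, the secreted selenium carrier, fell by 1.20 ± 0.13, Selenow by 0.91 ± 0.23 and the sestrin Sesn1 by 0.42 ± 0.07. The mitochondrial thioredoxin reductase Txnrd2 rose by 0.52 ± 0.10, opposite to the cytosolic Txnrd1, and nucleoredoxin (Nxn) by 0.39 ± 0.06. Of the transferases Gstm4 rose by 0.65, Gstm7 by 0.51 and the scarce Gsta3 fell by 2.31, from 2.26 ± 0.943 to 0.441 ± 0.261 CPM. Remaining calls were rises of the zinc and iron importer Slc39a14 (0.67), the exporter Abcc5 (0.47) and Nnt, the mitochondrial transhydrogenase (0.24). Metallothionein's regulator Mtf1 and the zinc exporter Slc30a1 did not pass, at 0.01 ± 0.08 and 0.10 ± 0.08.

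Without control library 4, 21 of these further genes rose and 17 fell, including all 20 called with it; over all genes tested in that analysis 18.7% rose and 19.9% fell. There Sod2 rose by 1.37, Oplah by 0.78, Aox1 by 0.69, Slc39a14 by 0.54, Gstm4 by 0.81, Gstm7 by 0.53, Ggt7 by 0.46, Txnrd2 by 0.48, Abcc5 by 0.45, Nxn by 0.36 and Nnt by 0.27. Gsta3 fell by 1.94, Nox4 by 1.18, Selenop by 1.06, Hmox1 by 0.74, Hagh by 0.60, Mafk by 0.58, Sqstm1 by 0.49 and Sesn1 by 0.46. Slc7a11 was at 0.15, G6pdx at -0.08, Me1 at -0.04, Mtf1 at -0.03 and Slc30a1 at 0.07, and none of these 5 passed. Omitting co-culture library 3 left 7 that rose and 4 that fell, and omitting co-culture library 2 left 5 that fell. Sod2, Nox4, Hmox1, Aox1, Oplah, Selenop, Sesn1, Nxn, Gstm7, Abcc5 and Slc39a14 were called with any 1 library left out. The others lost their calls when some libraries were left out. On omitting co-culture library 1, 2 or 3 this held for Hagh (edgeR adjusted p = 0.0849, 0.0773 and 0.0606), Txnrd2 (0.0531, 0.0633 and 0.0736; 0.0572 without control library 5), Selenow (0.0979, 0.111 and 0.133), Gstm4 (0.0863, 0.0908 and 0.0595; 0.0711 and 0.0581 without control libraries 5 and 6) and Nnt (0.143, 0.1245 and 0.109; 0.116 and 0.0700 without control libraries 5 and 6). It held for Sqstm1 on omitting co-culture library 1 or 3 or control library 5 (edgeR adjusted p = 0.0675, 0.072 and 0.0521) and for Mafk on omitting co-culture library 2 or 3, or either of controls 5 and 6 (0.069, 0.0774, 0.0643 and 0.0814). Gsta3 lost its call on omitting co-culture library 2 and on omitting 3 (edgeR adjusted p = 0.0617 and 0.0744) and Ggt7 without co-culture library 3 (0.0606). Selenow fell by 0.58 without control library 4.

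**Figure D5:**
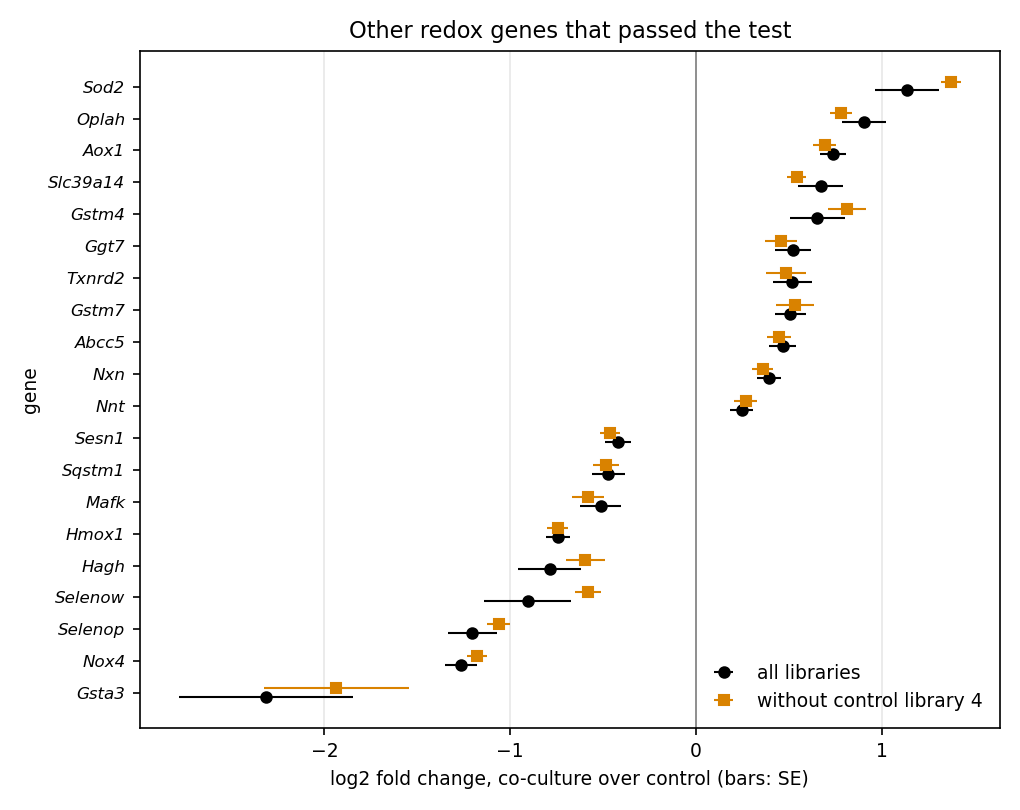
Log2 fold changes of co-culture over control (x axis) with SE bars for the 20 further redox genes that passed the test (y axis), with all libraries (black circles) and without control library 4 (orange squares). Gsta3, Nox4 and Selenop fell most and Sod2 rose most.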

How the data were processed

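RNA of 6 libraries was compared, 3 per group, grouped by the labels' titles. Per the labels' protocols HISAT was the aligner, and the submitters' processing notes name mm10 as the build. Which counting program, annotation release, kit and strand setting were used the sources used here do not give. The deposited gene and transcript tables hold estimated counts that need not be whole, which were rounded, with FPKM (scaled to length and library size) and TPM (also scaled to length, with a fixed sum per library) made by the authors. Control columns are numbered 4 to 6, unlike the control titles, and were assigned to their group only; 18 deposited per-sample columns were not used. Gene length was implied from the deposited co-culture counts and FPKM, and FPKM and TPM of all libraries were computed from it; computed and deposited co-culture values differed by a median of 0.0055 and 0.0111 (log2).

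Genes passing filterByExpr were scaled by TMM (edgeR 4.0.16, R 4.3.3) and tested two-sided by the quasi-likelihood test with no covariate, adjusted over all genes tested by the Benjamini-Hochberg method; a gene rose or fell at an adjusted p under 0.05. SE was taken as |log2 fold change| over the root of the F statistic. DESeq2 1.42.0 and limma 3.58.1 served as alternatives. Scripts were tested on simulated counts, in which no library was given the excess of short genes seen in control library 4. The genes, roles and lists were chosen with earlier results of these data known. All 37 genes are named, with the value in every library for those called and for uncalled genes in the same role as a called one; further pathway genes are named if called. Me1, Ephx1, Slc7a11, G6pdx, Mtf1 and Slc30a1, and the values in every library of other uncalled genes, were added after their values were seen. Library totals set the precision of low genes: before TMM scaling 1 CPM is 17.5 to 18.5 reads. Coordinates (1-based) and promoters are those of RefSeq on GRCm38.p6 (mm10 is the UCSC name of GRCm38); all 37 gene IDs matched. Genes with an overlapping span, introns included, were found in that table for 11 of the 37. For 3 of these the other gene is protein-coding: Eid3 for Txnrd1, Trmt112 for Prdx5 and Cdc20b for Gpx8. Exons were not compared, and reads from any shared exon cannot be told apart without strand.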

Additional observations from a re-analysis of the deposited data

How the results depend on the processing

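Estimates were recomputed under 10 other settings and with each library left out. The 10 genes called kept their direction in all 16. Members that rose numbered 2 with all libraries and 1 with DESeq2's Wald test, 4 with quality weights, 1 without a filter, 1 on FPKM at either pseudocount (1 or 0.1), 0 on log2(TPM + 1), 4 with a gene-length trend as offset (chosen after seeing the data), and 0 to 10 with a library left out. Members that fell numbered 8, then 7 with DESeq2 size factors and 6 with DESeq2's Wald test. They numbered 4 with library totals without factors, 4 on FPKM at either pseudocount, 2 on log2(TPM + 1), and 3 to 10 with a library left out. DESeq2's Wald test did not call Abcc1, Gss or Txnrd1 (DESeq2 adjusted p = 0.0764, 0.0619 and 0.0968). The length trend gave 9 that fell, adding Nqo1, and added Nfe2l2 and Gstm2 to those that rose. With library totals without factors the 2 that rose were Nfe2l2 and Sod3, and Abcc1 was not called. Further pathway genes that rose numbered 11, with 19 under quality weights, 4 with log2(TPM + 1) and 7 to 21 with a library left out; those that fell numbered 9, with 15, 4 and 4 to 17. The cause of these differences was not tested. Without control library 4, 15 of the 37 changes turned sign, 5 of them to a call, namely Prdx5 (0.20; -0.23 to 0.20 over left-out libraries), Gstm5 (0.24; -0.53 to 0.24), Mgst1 (0.50; -0.45 to 0.50), Sod1 (0.20; -0.33 to 0.20) and Mt2 (0.30; -0.27 to 0.30). The median of all genes moved to 0.14 with log2(TPM + 1), where that of the 37 genes was 0.00. Members with changed transcript use numbered 0 in every alternative run. No paired analysis was possible because the control columns carry the numbers 4 to 6, which match no replicate number of the co-culture columns. Low genes such as Gstt1, Sod3 and Gsta3 are those whose precision depth limits most.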

Other observations

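Selenoproteins, which carry selenocysteine at their active site and include several of the peroxidases and thioredoxin reductases, were listed in full after the values above had been seen, and no test of the list was made. Of 24 mouse selenoprotein genes 22 were in the table and 21 were tested; 2 rose and 5 fell (edgeR's quasi-likelihood test, adjusted p under 0.05; 20.6% of all genes tested were called). Gpx1, Gpx3, Selenop, Selenow and Txnrd1 fell, and Txnrd2 and Dio2, the deiodinase that activates thyroid hormone, rose. Dio2 rose by 0.73 ± 0.08 (edgeR adjusted p = 0.00165). The median log2 fold change was -0.26 with all libraries and -0.13 without control library 4, where 2 rose and 9 fell and 38.6% of all genes tested were called (18.7% higher and 19.9% lower). Selenoh, Selenom, Selenon and Selenot were the additional genes called lower there, at -0.51, -0.26, -0.24 and -0.30. Of the 21 genes 8 had an implied length under 1 kb.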
